A study of Homo sapiens with 32 samples.

Results

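The response to etoposide of U2OS cells that are heterozygous for the p53 change A347D (HET) was read from 8 of the 32 poly-A RNA libraries of the series: 4 HET libraries with 20 µM etoposide (ETO) against 4 HET libraries with DMSO, the solvent control. The members were chosen by their labels alone, and every gene measured in them was kept. U2OS is a human osteosarcoma line with wild-type p53, which was edited with CRISPR-Cas9 to carry A347D on 1 allele (p53+/AD). The series also holds unedited cells (WT), cells without p53 (KO) and cells with A347D on both copies (HOM), each with the same treatments. All cells were collected after 24 h, and each of the 8 groups holds 4 libraries from separate plates, which the labels count as biological replicates. The labels do not give the number of edited lines per genotype, so a difference between genotypes cannot be told apart from a difference between lines, and p-values measure the spread between plates.

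Etoposide is a cancer drug that holds topoisomerase II on cut DNA, so that double-strand breaks remain. p53 is stabilised by the kinases that sense such breaks and switches on genes for cell cycle arrest, repair and cell death. It binds DNA as a tetramer, and A347D lies in the domain through which p53 molecules join. The arrest works in part through p21, the product of CDKN1A, which lets the repressor complex DREAM silence genes of mitosis and replication. At many genes of mitosis DREAM acts by way of a promoter element named CHR. CCAAT boxes are a further element of many of these promoters.

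The HET libraries held 20.83 to 22.98 M counts with DMSO and 19.20, 8.05, 20.62 and 20.53 M with etoposide in replicates 1 to 4. Replicate 2 of the etoposide group was thus the shallowest of the series, where the other 31 libraries held 18.25 to 24.19 M. A single count in it equals 2.05 normalized counts, against 0.79 to 0.89 in the other HET libraries, so its low values are coarse. Replicates 2, 3 and 4 of HOM with DMSO stood apart from all other libraries, with 20.68% to 21.92% of their counts from mitochondrial DNA. The share in the other libraries was 7.87% to 15.15%, with 7.87% to 9.43% in the HET libraries and the highest value in WT with DMSO. The HOM libraries were therefore left out of the fit, which used 24 libraries.

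Levels are given as normalized counts, that is, recovered counts scaled for library depth by the authors. To be called, a gene had to pass 0.05 in adjusted p from limma and 1.5 in fold, and all adjusted p-values are Benjamini-Hochberg values over the 16563 genes tested. "Rose" and "fell" are used only for called genes. Fold changes are on the log2 scale of the normalized count plus 1, with ± the standard error (SE) where one is given. The SE and the p-values come from 1 fit to the 24 libraries. Their spread is pooled over the WT, KO and HET libraries, so ± is not the scatter of the HET libraries alone.

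Etoposide raised 3072 genes in HET cells (18.5% of those tested) and lowered 2233 (13.5%). The strong changes were mostly rises: 766 genes rose at least 4-fold and 123 fell by as much, while 77 rose and 9 fell at least 16-fold. The 4 etoposide libraries did not overlap the 4 DMSO libraries in 8355 genes (50.4%). The direction of the balance depended on the scaling and on the filter. Among the 13392 genes that passed a filter of 50 normalized counts 1986 rose and 2031 fell. With quantile normalization 2566 genes rose and 2755 fell, and scaling to the total count moved the median of all genes up by 0.20, with 4345 rises and 1385 falls, against a median of 0.01 with the authors' scaling. Without replicate 2 of the etoposide group, 2985 genes rose and 2191 fell.

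By the naming rule, which asks for a mean of at least 50 normalized counts in a HET group and no overlap between the groups, the largest rises were led by genes outside the named lists. ESM1, a secreted proteoglycan of endothelial cells, was measured at 0, 0, 3.50 and 0 normalized counts with DMSO and at 298.0, 319.9, 288.9 and 330.1 with etoposide (log2 7.73 ± 0.33 SE, adjusted p 1.57e-15). NECTIN4, a cell adhesion molecule, went from 2.62, 2.60, 4.37 and 8.85 to 997.4, 1017, 890.2 and 943.8 (7.55 ± 0.29). TREM2, a receptor best known from microglia, was at a single count in each DMSO library and at 259.9, 246.0, 312.4 and 276.5 with etoposide (7.19 ± 0.30). In all of these the lowest etoposide library was far above the highest DMSO library. The nicotinic receptor subunit CHRNA9 (6.48 ± 0.24), the stress cytokine GDF15 (6.15 ± 0.18), ARL14 (6.09 ± 0.31), the matrix metalloproteinase MMP3 (6.03 ± 0.27) and the hair keratin KRT34 (5.90 ± 0.65, or 5.14 without DMSO replicate 3) followed. ARL14 was lower in etoposide replicate 3, at 90.89, than in the other etoposide libraries, at 140.5 to 145.6. RNASE7, an antimicrobial protein of skin, had 1 count in all 4 DMSO libraries and 334 with etoposide, a ratio of 366 with a 95% exact interval from 65.2 to 14500 that covers counting error only. DSEL, an epimerase-like gene, had uneven DMSO libraries, at 0, 91.09, 3.50 and 0, and 294.6 to 432.6 with etoposide. Its log2 change was 6.23 ± 0.94 with all libraries, 7.68 without DMSO replicate 2 and 5.51 without DMSO replicate 1 or 4.

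By the same rule the largest fall was in PI15, a peptidase inhibitor, from 683.9, 921.3, 410.3 and 706.2 normalized counts with DMSO to 20.32, 16.40, 12.98 and 18.12 with etoposide (log2 -5.21 ± 0.28, adjusted p 1.51e-13). The urea transporter SLC14A1 followed at -4.38 ± 0.20. CXCL14, a chemokine, stood at 77645, 75838, 90978 and 78611 with DMSO, and at 4249, 4150, 4186 and 3697 with etoposide (-4.31 ± 0.08). The lowest DMSO library of CXCL14 was thus far above its highest etoposide library. The transcription factor FOXS1 fell by 4.18 ± 0.51, or by 3.24 without etoposide replicate 2, in which it had no count. SLITRK6 (-4.12 ± 0.28), KIAA1210 (-4.10 ± 0.29), the receptor GPR55 (-4.09 ± 0.19), the chemokine CCL24 (-3.80 ± 0.17) and BMF (-3.77 ± 0.11), a BH3-only cell death gene, were among the next largest falls.

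Of 69 tested p53 target genes, 51 rose and 3 fell in HET cells, next to 18.5% and 13.5% of all genes. Their median log2 change was 1.31, against a median of 0.01 for all genes. The etoposide and DMSO libraries did not overlap in 61 of the 69, next to 50.4% of all genes. This list is a textbook selection, put together with earlier results of these data known, and 5 of its 74 genes had too few counts to be tested. In WT cells 58 of the 69 rose and 2 fell (22.1% and 15.5% of all genes), with a median of 1.36. In KO cells 25 rose and 5 fell (20.1% and 15.2% of all genes), with a median of 0.36.

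**Figure D1:**
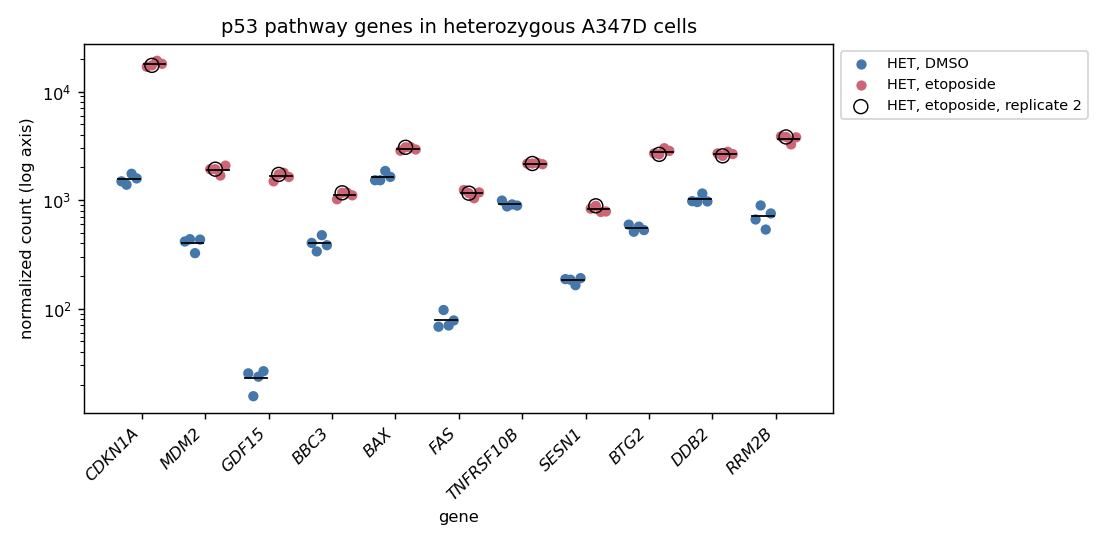
Normalized counts (log axis) of 11 genes of the p53 pathway in the 4 HET libraries with DMSO (blue) and the 4 with etoposide (red); lines are means and the ringed point is the shallow etoposide replicate 2. CDKN1A reached 16911 to 19206 and GDF15 moved from 15.62 to 26.55 up to 1488 to 1782; replicate 2 sat with the other etoposide libraries.

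Among the genes of cell cycle arrest 11 of 13 rose and none fell. CDKN1A (chr6:36676460-36687339 on GRCh38, plus strand), which encodes the CDK inhibitor p21, was at 1488, 1385, 1748 and 1583 normalized counts with DMSO and at 16911, 17414, 19206 and 17990 with etoposide, a log2 change of 3.53 ± 0.10 (adjusted p 4.21e-19). GADD45A, a stress sensor, went from 174.0, 177.0, 180.2 and 200 to 2180, 2067, 1938 and 2093 (3.49 ± 0.08). In both genes the groups were far apart and the 4 libraries of a group lay close together. PLK3 (2.62), the antiproliferative gene BTG2 (2.34 ± 0.08), the sestrin SESN1 (2.17 ± 0.12), SESN2 (1.72 ± 0.12), SFN, which encodes 14-3-3σ (1.74), and ZMAT3, an RNA-binding p53 effector (1.63), also rose. CCNG2 (-0.04) and E2F7 (0.23) were not called.

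Of the 6 feedback genes 5 rose. MDM2, the ubiquitin ligase that degrades p53, was at 415.4, 436.4, 324.6 and 432.7 with DMSO and at 1924, 1927, 1682 and 2077 with etoposide (2.24 ± 0.16, adjusted p 1.71e-11). PPM1D, the phosphatase that ends the damage signal, rose by 1.04 ± 0.09, RPS27L by 1.77, PHLDA3, an inhibitor of AKT, by 1.70 and TRIAP1 by 1.48. CCNG1 had a log2 change of 0.52 ± 0.11, under the fold threshold in these units, and was called higher at 0.74 with quantile normalization.

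In the group of apoptosis targets 8 of 12 rose and 1 fell. FAS, a death receptor, was at 68.21, 97.16, 69.99 and 77.88 with DMSO and at 1238, 1158, 1040 and 1177 with etoposide (3.87 ± 0.20). BBC3, which encodes PUMA, went from 403.1, 336.6, 475.1 and 384.1 to 1017, 1167, 1168 and 1106 (1.49 ± 0.09), and PMAIP1, which encodes NOXA, from a mean of 551.6 to 2452 (2.18 ± 0.17). BAX, the pore-forming effector of mitochondrial cell death, was at 1524, 1523, 1855 and 1636 and then at 2849, 3065, 3080 and 2922, a smaller change of 0.87 ± 0.09 with no overlap. TNFRSF10B, the TRAIL receptor DR5, rose by 1.24 ± 0.06 and the nuclease gene AEN by 1.81. STEAP3, a ferrireductase, fell by 0.60. APAF1, the apoptosome scaffold, had a change of 0.49 that was not called.

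Repair, metabolic and secreted targets completed the list. DDB2 (1.40 ± 0.08) and XPC (1.15 ± 0.06), which find damage for nucleotide excision repair, and RRM2B (2.39 ± 0.19), a ribonucleotide reductase subunit, rose, and the Fanconi gene FANCC fell by 1.30 ± 0.07. Of 10 metabolic and redox genes 7 rose, led by the glutaminase GLS2, from 5.25, 5.21, 8.75 and 6.20 to 123.6, 137.4, 143.6 and 136.3 (4.24 ± 0.28), with FDXR at 2.09 and TIGAR at 1.88 ± 0.15. LPIN1, a phosphatidate phosphatase, fell by 0.80 ± 0.06. GDF15 (chr19:18374731-18389176, plus strand) was at 25.36, 15.62, 23.62 and 26.55 with DMSO and at 1488, 1724, 1782 and 1632 with etoposide (adjusted p 1.5e-18). Its change was the largest on the list, and 16 of the 22 genes in its group of secreted and other targets rose.

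Of 16 tested genes of the BCL2 family, whose members hold or release the mitochondrial death signal, 7 rose and 2 fell. Over all genes 18.5% rose and 13.5% fell, so the share of falls was near that of all genes. Among the guardians, BCL2A1 rose from 0.87, 3.47, 1.75 and 1.77 to 97.37, 84.07, 67.35 and 61.45 normalized counts (4.77 ± 0.34), BCL2L1, which encodes BCL-XL, by 0.74 ± 0.09, and MCL1 by 0.65 ± 0.09. BCL2 (0.34 ± 0.14) and BCL2L2 (0.10) were not called. Of the effectors only BAX was called. BAK1 had a log2 change of 0.52 ± 0.10, with an adjusted p of 7.67e-05 and a fold under the threshold, and was called higher at 0.68 with quantile normalization. BOK (-0.37) was not called.

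The BH3-only genes were split. BIK rose by 2.40 ± 0.19 beside BBC3 and PMAIP1. BMF stood at 1129, 824.2, 1059 and 1039 with DMSO and at 64.35, 82.02, 68.16 and 78.78 with etoposide, and BAD fell by 0.92 ± 0.10. The etoposide libraries of BMF lay far below all of its DMSO libraries. BCL2L11 (-0.54), BID (0.48) and HRK (0.34) were not called.

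Of 21 tested genes of the caspase pathway and death receptors, 8 rose and none fell, next to 18.5% and 13.5% of all genes. CASP10 (1.35) and CASP1 (1.74) rose, and the inhibitor of apoptosis BIRC3 rose from 72.58, 81.55, 51.62 and 75.22 to 531.7, 475.7, 484.5 and 494.7 (2.82 ± 0.29). The adaptor FADD (0.07) and the initiator caspases CASP8 (0.12) and CASP9 (-0.40) were not called. The 22 genes of the mitochondrial outer membrane and its dynamics had a median of -0.08. They held 1 rise and 1 fall, next to 18.5% and 13.5% of all genes. The rise was in CYCS, which encodes cytochrome c (0.69 ± 0.13). The fall was in the channel gene VDAC2 (-0.78 ± 0.07), which was not called with quantile normalization (-0.52). None of the 13 mtDNA-encoded genes was called (median -0.09, from -0.28 to 0.23), though 1 was called higher with quantile normalization, and the medians of both lists turn to 0.11 and 0.10 with scaling to the total count.

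**Figure D2:**
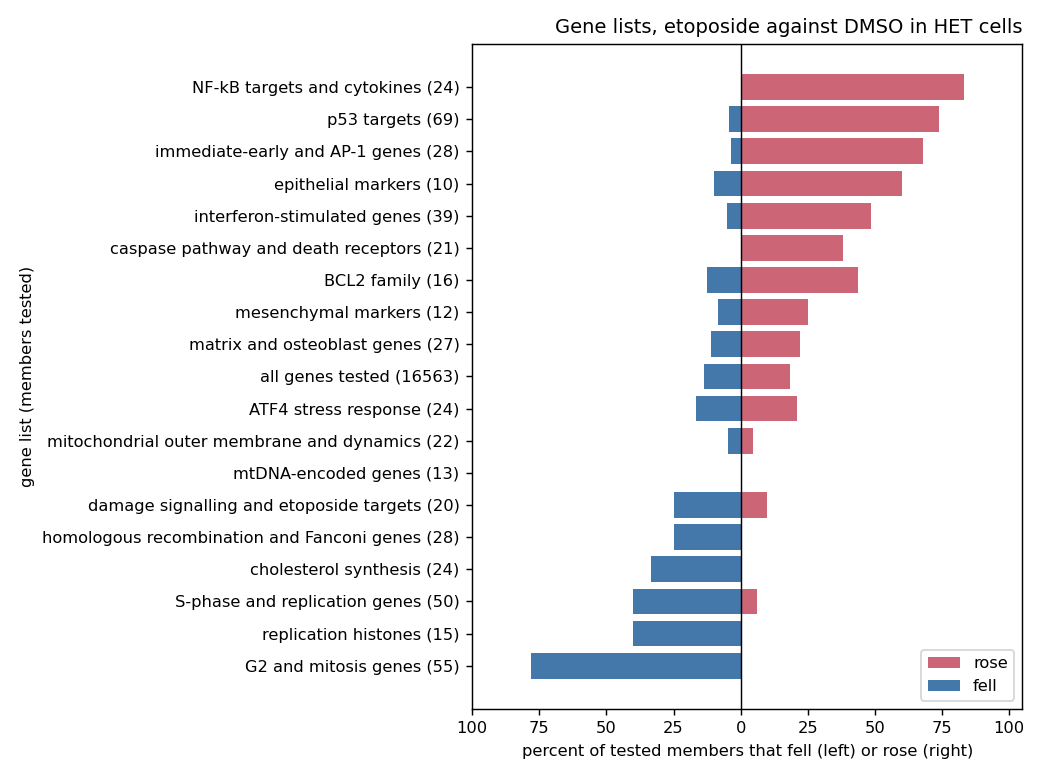
Percent of the tested members of each gene list, cornified envelope and blood cell genes left out, that rose (red, to the right) or fell (blue, to the left) in HET cells with etoposide, with the number of tested members in brackets and all genes tested as the reference. The lists of p53 targets and NF-kB targets lean to rises, G2 and mitosis genes hold falls alone (43 of 55), and the mtDNA-encoded genes hold no call.

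Genes of G2 and mitosis fell together: 43 of 55 fell and none rose, next to 13.5% and 18.5% of all genes. Their median log2 change was -0.97. In bulk RNA, fewer cells in these phases and less RNA per cell cannot be told apart. The promoters of 4 of them are shown because they carry the CHR and CCAAT elements named above. Each is the stretch of 100 bases directly before the RefSeq transcription start on GRCh38.p14, written 5′ to 3′ on the gene's strand, with CCAAT boxes (CCAAT, or ATTGG on the other strand) and CHR elements (TTTGAA or TTCGAA, or TTCAAA on the other strand) in capitals.
CCNB2 (chr15:59105046-59105145, plus strand): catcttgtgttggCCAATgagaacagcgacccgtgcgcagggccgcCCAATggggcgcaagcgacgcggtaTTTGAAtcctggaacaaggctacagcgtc
PLK1 (chr16:23678789-23678888, plus strand): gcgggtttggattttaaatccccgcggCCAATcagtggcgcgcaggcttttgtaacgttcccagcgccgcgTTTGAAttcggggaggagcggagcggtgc
KIF11 (chr10:92593030-92593129, plus strand): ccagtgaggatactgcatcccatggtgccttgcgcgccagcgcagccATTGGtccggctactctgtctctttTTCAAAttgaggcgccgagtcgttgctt
PRC1 (chr15:90994536-90994635, minus strand): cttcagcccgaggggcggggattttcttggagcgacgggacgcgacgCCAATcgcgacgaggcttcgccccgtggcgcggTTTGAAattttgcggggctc
In all 4 a CHR element begins 20 to 29 bases before the start, with a CCAAT box upstream of it, 53 bases before the start in KIF11 and PRC1.

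The same letters were counted in the 300 bases from 250 before to 50 after the start, on both strands. Of the 55 G2 and mitosis genes 45 matched a promoter in the RefSeq table, and 30 of these (66.7%) held a CHR element, 33 (73.3%) a CCAAT box and 24 (53.3%) both. Among the 12378 tested genes with a promoter the shares were 11.6%, 35.9% and 4.8%. They were 14.7%, 42.5% and 8.4% among the 1665 genes with a promoter that fell in HET cells. Among the 2232 that rose they were 12.4%, 31.8% and 4.5%. Of the 36 G2 and mitosis genes that fell and had a promoter, 22 (61.1%) held a CHR element, below the 66.7% of the whole list. In the same 36 genes, 27 held a CCAAT box and 18 both. Of the 43 S-phase and replication genes with a promoter, 3 held a CHR element, 24 a CCAAT box and 3 both. A p53 response element, searched as a pair of decamer half-sites with the consensus that bears its name and up to 13 bases between them, was found in 3 of the 12378 windows. A match is a run of letters and not a measured site, and these shares were not tested.

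PLK1 (gene at chr16:23677656-23690367), a mitotic kinase, was at 3916, 3350, 5353 and 4140 normalized counts with DMSO and at 676.5, 643.8, 717.3 and 758.6 with etoposide (log2 -2.56 ± 0.13, adjusted p 4.03e-14), the largest fall of the list. CCNB1, which encodes cyclin B1, went from 4942, 5847, 5802 and 5326 to 2008, 2161, 1870 and 1862 (-1.47 ± 0.07). NUSAP1, a spindle protein, fell by 2.12 ± 0.14, from 1494 to 1621 in 3 DMSO libraries and 2363 in DMSO replicate 2, and the APC/C activator CDC20 fell by 2.11. The kinesin gene KIF4A (-1.86), the spindle factor TPX2 (-1.57), CCNB2 (-1.56), the survivin gene BIRC5 (-1.53), AURKB (-1.42), KIF11 (-1.36) and PRC1 (-1.29) also fell. FOXM1, a transcription factor of mitotic genes, fell by 0.75 ± 0.12 and was not called with quantile normalization (-0.49) or total-count scaling (-0.56).

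CDK1, the kinase that starts mitosis, stood out from its cyclins. Its libraries overlapped, at 1594, 2200, 1339 and 1565 with DMSO and 1551, 1640, 1222 and 1442 with etoposide, and its change of -0.18 ± 0.16 was not called (adjusted p 0.365). PKMYT1 (-0.02), PLK4 (-0.12) and BUB3 (-0.16) were not called either. TOP2A, the topoisomerase II isoform of dividing cells and a target of etoposide, fell by 1.42 ± 0.19, from 7824, 12133, 7016 and 9191 to 3531, 3356, 3132 and 3258. TOP2B, the other isoform, overlapped between the groups (-0.22 ± 0.18).

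**Figure D3:**
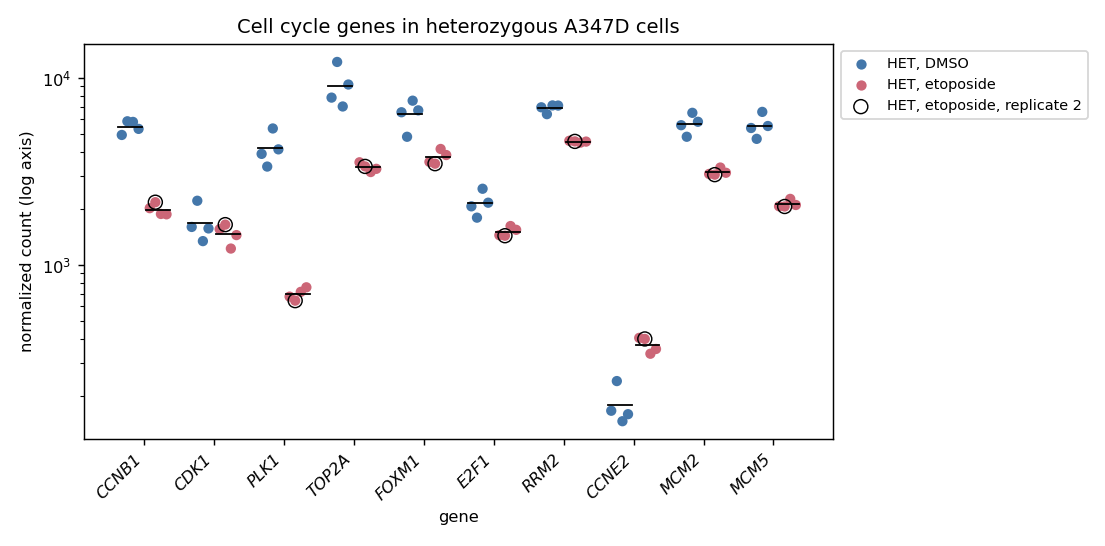
Normalized counts (log axis) of 10 cell cycle genes in the 4 HET libraries with DMSO (blue) and the 4 with etoposide (red); lines are means and the ringed point is etoposide replicate 2. PLK1, CCNB1, TOP2A and MCM5 are lower with etoposide in every library, CCNE2 is higher, and the CDK1 libraries overlap.

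Of 50 genes of S phase and replication, 20 fell and 3 rose (median -0.44), next to 13.5% and 18.5% of all genes. There were 12 falls when libraries were scaled to the total count. Of 12 genes of the replicative helicase 7 fell. MCM5 was at 5384, 4711, 6564 and 5518 with DMSO and at 2056, 2050, 2251 and 2088 with etoposide (-1.38 ± 0.09), MCM7 fell by 1.08, MCM3 by 0.98, MCM6 by 0.88 and MCM2 by 0.85 ± 0.07, while MCM4 (-0.21) and MCM10 (0.20) were not called. POLA1, the catalytic subunit of the priming polymerase, fell by 1.5 ± 0.12. The 3 rises were in CCNE2, a cyclin E gene (1.09 ± 0.26), the checkpoint mediator CLSPN (0.91 ± 0.13) and PCNA (0.69). E2F1, the factor that drives the set, was at 2054, 1787, 2550 and 2148 and then at 1440, 1431, 1612 and 1539, without overlap but under the fold threshold (-0.49 ± 0.11). RRM2, a ribonucleotide reductase subunit, fell by 0.59 ± 0.06, next to the threshold, and was not called without DMSO replicate 3 or 4 (-0.58 each), with quantile normalization (-0.31) or with total-count scaling (-0.40).

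Falls numbered 7 and rises 0 in the list of 28 genes of recombination and the Fanconi pathway (median -0.24), next to 13.5% of all genes that fell and 18.5% that rose. With total-count scaling the list held 4 falls and 1 rise. Among them were FANCC, BRIP1 (-0.87 ± 0.25, not called with the HOM libraries in the fit), FANCG (-0.84), FANCD2 (-0.79) and BARD1 (-0.72). BRCA1 (-0.28) and BRCA2 (-0.05) were not called. Among 20 genes of damage signalling, topoisomerases and drug efflux, 5 fell and 2 rose, next to 13.5% and 18.5% of all genes. With total-count scaling 3 fell and 4 rose, and with quantile normalization 4 did each. H2AFX, the histone that is phosphorylated at breaks, fell by 1.36 ± 0.13 and the checkpoint kinase CHEK2 by 0.98, and ATM (-0.09) and ATR (0.09) were not called. The efflux pumps ABCB1, from 48.97, 94.56, 52.49 and 61.06 to 277.7, 293.2, 225.6 and 277.3 (2.09 ± 0.18), and ABCG2 (1.10 ± 0.19) rose. Of 15 tested replication histone genes 6 fell and none rose, next to 13.5% and 18.5% of all genes. The falls included HIST2H2AC (-2.80 ± 0.15) and HIST1H3H (-1.99 ± 0.14). Poly-A selection captures most replication histone transcripts poorly, and their coding sequences are close to one another.

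Many inflammatory genes rose. Of 30 NF-kB targets and cytokines 24 were tested, and of these 20 rose and none fell, next to 18.5% and 13.5% of all genes. The filter bears on this count, since 6 of the 24 were under 10 normalized counts in every HET DMSO library and at 10 or more in some HET etoposide library. CXCL8, the neutrophil chemokine IL-8, was at 24.49, 20.82, 21.87 and 19.47 with DMSO and at 320.9, 340.4, 275.1 and 295.4 with etoposide (3.77 ± 0.63), and IL11 went from 83.08, 83.28, 90.99 and 81.42 to 1146, 1255, 1278 and 1224 (3.84 ± 0.11). IL6 stayed low, from 1.74 to 3.50 up to 16.09, 28.71, 17.85 and 16.54 (2.60 ± 0.27), and the highest of these is the shallow library, where 28.71 stands for few reads. The inhibitors NFKBIA (1.04 ± 0.11) and TNFAIP3 (2.19) and the subunits RELB (1.48) and NFKB2 (0.96) rose, and NFKB1 (0.41) was not called. In the same libraries SOD2, another NF-kB target, was not called (-0.39).

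Of 28 immediate-early and AP-1 genes 19 rose and 1 fell (median 0.97), next to 18.5% and 13.5% of all genes. ATF3 was at 89.20, 71.14, 86.61 and 91.15 with DMSO and at 1496, 1466, 1499 and 1453 with etoposide (4.12 ± 0.10, adjusted p 5.83e-20). FOSB (3.96 ± 0.20), NR4A3 (3.67), FOSL1 (2.31), NR4A1 (2.0) and MYC (1.10) also rose. The fall was in JUND (-0.65 ± 0.12), which was not called without DMSO replicate 3 (-0.54), with quantile normalization (-0.46) or with total-count scaling (-0.46).

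Of 39 interferon-stimulated genes 19 rose and 2 fell (median 0.64), next to 18.5% and 13.5% of all genes. With total-count scaling 1 fell, and with quantile normalization 4 fell. IFIT3 rose from 17.49, 19.95, 32.37 and 28.32 to 133.8, 100.5, 107.9 and 122.9 (2.23 ± 0.19). IFIT1, a neighbour in the same family of RNA-binding proteins, fell by 1.31 ± 0.23, from 243.1, 301.9, 239.7 and 246.0 to 111.8, 106.6, 111.2 and 84.29. IFIT2 was at 20.35 to 45.98 with DMSO and 28.40 to 55.36 with etoposide, and its libraries overlapped (0.40 ± 0.26). OAS2 (1.99), IFI44L (1.86 ± 0.22), TLR3 (1.71) and ISG15 (1.19) rose, BST2 fell by 0.76, and MX1 (-0.04) was not called.

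Of 24 cholesterol synthesis genes 8 fell and none rose (median -0.32), next to 13.5% and 18.5% of all genes. The falls were led by MVK (-1.08 ± 0.10), the mevalonate kinase, and FDFT1 (-1.02 ± 0.08), and numbered 4 under total-count scaling. Of 24 genes of the ATF4 stress response 5 rose and 4 fell, near the 18.5% and 13.5% of all genes, and 8 rose and 3 fell with total-count scaling. DDIT4, an inhibitor of mTORC1, went from 3404, 3268, 3857 and 3316 to 866.1, 881.7, 961.6 and 889.4 (-1.94 ± 0.07) and PHGDH, the first enzyme of serine synthesis, fell by 1.58 ± 0.11. SESN2 and CHAC1 (0.87 ± 0.12), a glutathione-degrading enzyme, rose, and ATF4 itself (-0.01) was not called.

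Of 27 matrix and osteoblast genes 6 rose and 3 fell, near the shares over all genes. MSX2, a homeobox gene of bone, rose by 1.40 ± 0.09 and FN1, which encodes fibronectin, by 0.94. COL3A1 (-1.12 ± 0.10), COL5A2 (-0.92) and the osteoblast protein SPP1 (-1.22 ± 0.16) fell. Mesenchymal markers were high in both groups, with a summed level of 107548 to 152514 normalized counts with DMSO and 121450 to 139416 with etoposide over 13 genes, of which TWIST1 was at 0 with DMSO. Of the 12 that were tested 3 rose and 1 fell, which is also near those shares.

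Some genes typical of other cell types rose, several of them from low levels. Of 20 genes of the cornified envelope and epidermis 11 were tested. Of these, 9 were under 10 normalized counts in every HET DMSO library and at 10 or more in some HET etoposide library, and 5 had no count in any HET DMSO library, so the filter admitted them through libraries in which they were higher. Against the bound of 3 counts per library, LCE1E was at 44.03, 38.96, 64.92 and 64.60 with etoposide, at least 20.2-fold higher, and LCE1C and LCE1F were at least 16.5-fold and 9.09-fold higher; LCE1 genes are close copies, and reads may be split among them. Of 12 epithelial markers 10 were tested, 2 of them under 10 normalized counts in every HET DMSO library. Of the 10, 6 rose and 1 fell, next to 18.5% and 13.5% of all genes. CDH1, which encodes E-cadherin (3.44 ± 0.41), and the tight junction claudins CLDN4 (2.45 ± 0.12) and CLDN1 (1.96 ± 0.12) rose, and KRT14, a basal keratin, fell by 3.41 ± 0.10, from 1257, 1243, 1565 and 1313 to 132.9, 116.9, 121.7 and 128.4. The 12 epithelial markers summed to 7572 to 10593 with DMSO and 12159 to 13110 with etoposide.

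The 13 blood cell markers summed to 56.84 to 71.74 normalized counts with DMSO and 227.6 to 258.1 with etoposide, mostly from CD68, a lysosomal protein of macrophages, with means of 42.66 and 168.6 (1.98 ± 0.13). HBA1, HBB and TYROBP were at 0 with DMSO, and 4 of the 13 markers were tested. The number of genes with at least 1 count moved in the same direction: 19877 to 20252 in the DMSO libraries and 23117, 20819, 23083 and 23340 in the etoposide libraries, where 20819 belongs to the shallow replicate 2. The part of this broader detection in the rises of genes with low levels was not tested. In WT cells 19545 to 19990 genes had a count with DMSO and 22118 to 22532 with etoposide.

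**Figure D4:**
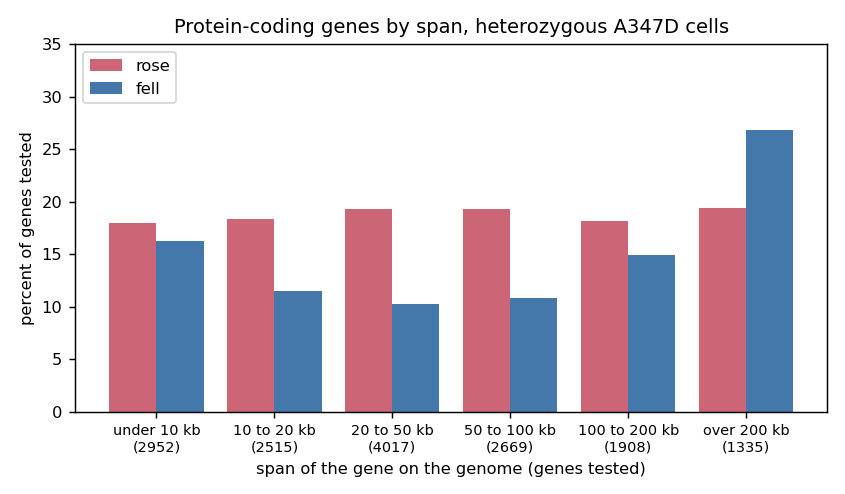
Percent of tested protein-coding genes that rose (red) or fell (blue) in HET cells, by the span of the gene on the genome, with the number of genes in brackets. The share that rose lies between 18% and 19.4% in all 6 classes, and the share that fell is 10.2% to 16.2% up to 200 kb and 26.8% above.

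Falls were more frequent among long genes. Of 1335 tested protein-coding genes that span over 200 kb in GENCODE, 358 fell (26.8%), against 10.2% to 16.2% in the 5 classes of shorter genes, while the share that rose was 18% to 19.4% in every class. With a mean of at least 50 normalized counts over the 24 libraries, 325 of 982 genes over 200 kb fell (33.1%) and 109 rose (11.1%). In the 5 shorter classes at this floor 11.4% to 18.2% fell and 11.5% to 14.6% rose. The median log2 change over 200 kb was -0.16 in HET, -0.17 in WT and -0.50 in KO cells. These shares are a description without a test, since genes are not replicates.

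The difference between the response of HET and of WT cells, tested as an interaction, was called for 1273 genes (7.69% of those tested), 763 higher in HET (4.61%) and 510 lower (3.08%). The WT response held 3658 rises and 2571 falls (37.6% of genes in all). HET and WT cells also differed without the drug: with DMSO 5855 genes were called between them (35.3%), 18.4% of all genes higher in HET and 16.9% lower, and with etoposide 4471 (27.0%), 13% higher and 14.0% lower. Of the genes that rose in HET, 2334 also rose in WT (76.0% of the HET rises and 63.8% of the WT rises), and 1642 of the falls were shared (73.5% and 63.9%). In the opposite direction were 28 HET rises and 14 HET falls. No library is shared by these 2 responses.

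Among 69 p53 targets the difference in response between HET and WT was higher for 6 and lower for 6, next to 4.61% and 3.08% of all genes. In level, 10 were higher and 17 lower in HET than in WT with DMSO, next to 18.4% and 16.9% of all genes. With etoposide 2 were higher and 19 lower, next to 13% and 14.0% of all genes. CDKN1A changed more in HET by 0.64 ± 0.13 (adjusted p 0.00207), while its mean level was 1551 with DMSO and 17880 with etoposide in HET, against 4651 and 34111 in WT. The call was lost without WT DMSO replicate 1 (0.56). GDF15 changed more by 1.07 ± 0.25, with means of 22.79 and 1657 in HET and 243.3 and 8205 in WT, but the difference was 0.02 on the variance-stabilized scale of the deposited values, which weighs low counts less. GLS2 (-1.47 ± 0.40) and, outside the list, TREM2 (-1.94 ± 0.42) and the BCL2 family gene BIK (-0.96 ± 0.26) changed less in HET than in WT, though BIK was not called with the HOM libraries in the fit or on the variance-stabilized scale (-0.28). For MDM2 (-0.38), BBC3 (-0.02), BAX (0.04), FAS (0.08) and PMAIP1 (-0.30) the difference was not called, which does not show that the responses were equal.

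Some genes of the cell cycle had a higher response, mostly a smaller fall, in HET than in WT. The difference was higher for 17 of 55 G2 and mitosis genes and for 20 of 50 S-phase genes, next to 4.61% of all genes, and lower for none. With all 32 libraries in the fit these counts were 9 and 14. The median response was -0.97 in HET and -1.38 in WT for the first list, and -0.44 and -1.0 for the second. PLK1 (0.72 ± 0.18), FOXM1 (0.73 ± 0.17), E2F1 (0.69 ± 0.15), POLA1 (0.92 ± 0.18), CLSPN (0.84 ± 0.19) and MCM5 (0.66 ± 0.13) were among them, and all 6 differences lost their call when the HOM libraries were put in the fit. PLK1 and MCM5 lost it also with quantile normalization (0.43 and 0.56), and MCM5 without HET DMSO replicate 2 (0.58). In PLK1 the levels with etoposide were close, at 699.1 in HET and 864.8 in WT, after 4190 and 8462 with DMSO. The lists as a whole did not follow PLK1. Of 55 G2 and mitosis genes 14 were higher and 12 lower in HET than in WT with DMSO (median 0.02). With etoposide 22 were higher and 1 lower (median 0.42). Of 50 S-phase genes 2 were higher and 3 lower with DMSO (median -0.05). With etoposide 20 were higher and none lower (median 0.41). Over all genes 18.4% were higher and 16.9% lower with DMSO, and 13% and 14.0% with etoposide.

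**Figure D5:**
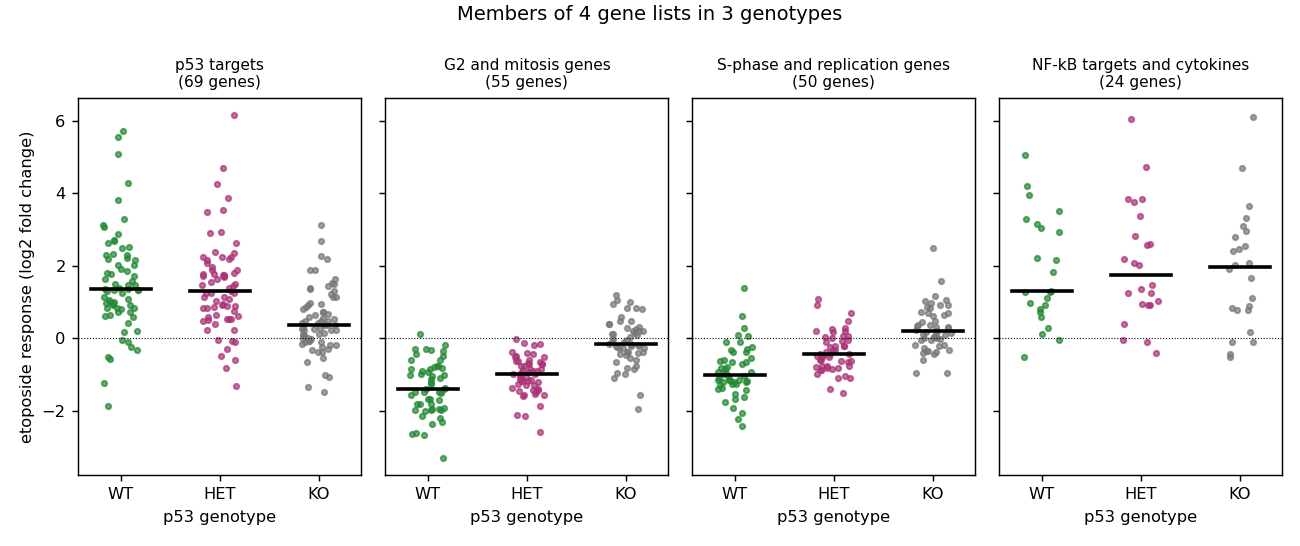
Etoposide response (log2 fold change) of each tested member of 4 gene lists in WT, HET and KO cells; points are genes and bars are medians. For p53 targets the medians are 1.36, 1.31 and 0.36, for G2 and mitosis genes -1.38, -0.97 and -0.14, for S-phase genes -1.0, -0.44 and 0.20, and for NF-kB targets 1.31, 1.75 and 1.98.

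Interferon genes also differed between HET and WT cells. Of 39 genes 8 had a lower and 1 a higher difference, next to 3.08% and 4.61% of all genes. With all 32 libraries 6 of 40 had a lower difference and none a higher one. IFIT2 rose in WT from a mean of 59.51 to 1062 normalized counts, and the difference of HET minus WT was -3.83 ± 0.37 (adjusted p 1.28e-07). IFIT1 rose in WT from 203.7 to 501.6 and fell in HET (difference -2.72 ± 0.32), and IFIT3 rose in both but less in HET (-1.71 ± 0.27). IFI44L had the higher difference (1.20 ± 0.30), which was not called with the HOM libraries in the fit.

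By the naming rule the largest higher differences to WT were in HSD17B8, DSEL, KCNK10, FHOD3 and RGS16, and 4 of the 5, all but DSEL, rose in HET and fell in WT. RGS16, a regulator of G protein signalling, rose in HET from 44.60, 56.39, 62.99 and 56.64 to 168.5, 188.6, 179.3 and 163.9 and fell in WT from a mean of 1497 to 544.8 (difference 3.10 ± 0.16, adjusted p 5.36e-12). The potassium channel KCNK10 (3.45 ± 0.30) and the formin FHOD3 (3.19 ± 0.40) started from low levels in HET, at means of 6.34 and 3.73 with DMSO. HSD17B8 (5.54 ± 1.25) had uneven DMSO libraries in HET, at 47.22, 4.34, 14.87 and 1.77, and its rise there was not called without DMSO replicate 4 (2.01) or with quantile normalization (2.14). For DSEL the difference was 5.08 ± 1.33, and 6.53 without HET DMSO replicate 2. The sulfatase SULF2 rose more in HET (3.09 ± 0.43).

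Among genes that the naming rule admits, with a mean of at least 50 in a compared group, the largest lower differences to WT were in LGALS7B (-4.55 ± 0.40), PI15 (-4.44 ± 0.40), LGALS7 (-4.20 ± 0.77), IFIT2 and CDC42EP5 (-3.67 ± 1.18). LGALS7 and LGALS7B are nearly identical galectin genes whose reads cannot be assigned with certainty; they had no count in HET with DMSO, and means of 5.48 and 8.78 with etoposide, against 111.2 and 226.0 in WT, so the fitted differences depend on the pseudocount. PI15 started from a mean of 680.4 in HET and of 33.72 in WT, and ended at 16.96 and 18.95. The CDC42EP5 difference lost its call under most alternatives, among them a pseudocount of 5 (-1.58).

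Against KO cells the difference in response was called for 2963 genes (17.9%), 1664 higher (10.0%) and 1299 lower (7.84%), next to 35.3% of genes called in the KO response itself. Of the HET rises 1884 were also rises in KO (61.3% of the HET rises and 56.7% of the KO rises), and of the falls 1234 (55.3% and 48.9%). Of the 3072 genes that rose in HET, 903 rose by more than in KO, and of the 2233 that fell, 539 had a lower difference. The comparisons with WT and with KO share the HET libraries, so their values stand side by side only.

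Of 69 p53 targets 43 had a higher difference to KO and none a lower one, next to 10.0% and 7.84% of all genes. GDF15 (4.26), CDKN1A (1.99), BTG2 (1.67), FAS (1.60), DDB2 (1.59), BBC3 (1.58), RRM2B (1.44), MDM2 (1.42), SESN1 (1.30), BAX (0.95), TIGAR (0.96), TNFRSF10B (0.98) and XPC (0.92) were among them, and outside the list BCL2L1 had a higher difference (1.36). BBC3, BAX, TNFRSF10B, DDB2 and XPC were not called in KO itself, where BBC3 was at 353.1 and 330.9. GADD45A (0.36) and PMAIP1 (-0.01) were not called as different, and both rose in KO, PMAIP1 from 350.6 to 1591. TREM2 had means of 0 and 0.21 in KO (difference 6.97), and NECTIN4 (5.00), LCE1E (5.28), DSEL (4.91) and SULF2 (4.68) made up the other largest higher differences by the naming rule. Those of TREM2 and LCE1E depend on the pseudocount, since a group was at 0, and that of DSEL was 6.36 without HET DMSO replicate 2.

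Many cell cycle genes had a lower response in HET than in KO. The difference was lower for 39 of 55 G2 and mitosis genes, 29 of 50 S-phase genes and 16 of 28 recombination and Fanconi genes, next to 7.84% of all genes, and higher for none of them. With all 32 libraries in the fit these counts were 26, 25 and 7. Replication histones went the other way, with 8 of 15 higher and 1 lower (median 1.15), next to 10.0% and 7.84% of all genes. All 15 fell in KO, next to 15.2% of all genes. TOP2A (-1.47), CCNE2 (-1.40), CDK1 (-1.24), RRM2 (-0.83), CCNB1 (-0.82) and PLK1 (-0.63) were among the genes with a lower difference, and those of CDK1, CCNE2 and PLK1 were not called with the HOM libraries in the fit. The PLK1 difference was also lost without KO DMSO replicate 1 (-0.57), KO etoposide replicate 1 (-0.58) or HET DMSO replicate 3 (-0.51). CDK1 rose in KO from a mean of 937.5 to 1951. By the naming rule the largest lower differences were in SLITRK6 (-3.68), PI15 (-3.36), the C-type lectin CLEC7A (-3.24), the homeobox gene ALX4 (-3.15) and PRB2 (-3.07).

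Among 24 NF-kB targets and cytokines 2 differences to WT were higher and 3 lower, next to 4.61% and 3.08% of all genes, and 4 differences to KO were higher and 4 lower, next to 10.0% and 7.84%. With all 32 libraries 1 was higher and 1 lower against WT, and 4 and 2 against KO. The rises numbered 20 in HET, 20 in WT and 19 in KO. ATF3, of the AP-1 list, changed more in HET than in KO (1.56), and for CXCL8 neither difference was called (1.62 against WT and -2.32 against KO), but the first was called without WT DMSO replicate 1 (2.51).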

How the data were processed

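Poly-A RNA libraries of U2OS cells were processed by the authors with kallisto and DESeq2 on GRCh38 (hg38), per the submitters' processing notes. Versions and the strand used in counting are not given in the sources used here, so a gene and an overlapping antisense gene may share reads. The matrix deposited by the authors holds 35587 gene symbols in log2-like units after a variance-stabilizing transformation, with a floor of 4.43; the transformation was read from the values. Inverting it gave normalized counts. Their mean equals the mean normalized signal in the authors' deposited table within a relative difference of 4.4e-14; undoing the scaling gave counts whole within 0.01 in 100.0% of values. Because the deposited unit is no count, count models were not used as the main test.

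A gene entered if 4 or more of the 24 WT, KO and HET libraries reached 10 normalized counts. Tests were run with limma 3.58.1 (R 4.3.3), with a trend and 1 mean per group, on log2 of the normalized count plus 1; the code was tested on simulated data. No replicate pair was a duplicate (chi-square over degrees of freedom of at least 1.89). Intervals and the floor of 3 counts cover counting error only.

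Named genes were fixed key genes, the 10 largest rises and falls with a mean of at least 50 and no overlap, the 5 largest on each side of a response difference, and up to 2 rising and 2 falling members per list. Other list members with a value are examples chosen after their values were seen. The members, lists and rule were chosen with earlier results of these data known. Alternatives were other pseudocounts, filters, scalings, weights, voom, sets of libraries and the replicate block. Positions are from GENCODE 29 and promoters from RefSeq on GRCh38.p14. Results of a few genes are not reported here.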

Additional observations from a re-analysis of the deposited data

Results flagged for a closer look

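In 9 named genes a single HET library lay apart from the other 3 of its group by Dixon's test at the 95% level. Chance gives such a gap in about 1 of 20 groups. With 109 named genes and both HET groups, chance alone can give as many as 9. With DMSO these were DDB2 in replicate 3 (1150 normalized counts), BCL2 in replicate 4 (175.2), and DSEL (91.09), NUSAP1 (2363) and IFIT1 (301.9) in replicate 2. With etoposide they were RRM2B (3256) and ARL14 (90.89) in replicate 3, NFKBIA in replicate 4 (1032) and IL6 in the shallow replicate 2 (28.71).

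Some of the 109 named genes were named for the size of their called difference between responses, so their number is not a result. Over all genes 7.69% had a called difference to WT. By limma's interaction test the response of HET cells differed from that of WT cells in 37 of the named genes, each given as the log2 difference. It was higher in HET for CDKN1A (0.64), GDF15 (1.07), PLK1 (0.72), FOXM1 (0.73), E2F1 (0.69), CHRNA9 (1.64), DSEL (5.08), HSD17B8 (5.54), KCNK10 (3.45), FHOD3 (3.19), RGS16 (3.10), SULF2 (3.09), CLSPN (0.84), POLA1 (0.92), MCM5 (0.66), IFI44L (1.20), CHAC1 (1.41) and CLDN4 (0.91). It was lower in HET for TREM2 (-1.94), PI15 (-4.44), SLITRK6 (-2.15), GPR55 (-1.68), LGALS7B (-4.55), LGALS7 (-4.20), IFIT2 (-3.83), CDC42EP5 (-3.67), CLEC7A (-1.39), ALX4 (-1.71), GLS2 (-1.47), BIK (-0.96), BIRC3 (-1.38), IFIT3 (-1.71), IFIT1 (-2.72), DDIT4 (-1.40), SPP1 (-1.21), CLDN1 (-1.38) and KRT14 (-1.04).

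Some genes were likewise named for the size of their called difference to KO, and over all genes 17.9% had one. The response differed from that of KO cells in 32 named genes. It was higher in HET for CDKN1A (1.99), BTG2 (1.67), SESN1 (1.30), MDM2 (1.42), BBC3 (1.58), BAX (0.95), FAS (1.60), TNFRSF10B (0.98), XPC (0.92), DDB2 (1.59), RRM2B (1.44), TIGAR (0.96), GDF15 (4.26), BCL2L1 (1.36), BAK1 (0.72), ATF3 (1.56), NECTIN4 (5.00), TREM2 (6.97), DSEL (4.91), LCE1E (5.28) and SULF2 (4.68). It was lower in HET for CCNB1 (-0.82), CDK1 (-1.24), PLK1 (-0.63), TOP2A (-1.47), CCNE2 (-1.40), RRM2 (-0.83), PI15 (-3.36), SLITRK6 (-3.68), CLEC7A (-3.24), ALX4 (-3.15) and PRB2 (-3.07).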

How the results depend on the processing

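The response of HET cells held 3072 higher and 2233 lower genes. Without a filter on low values 4986 were higher, with a filter of 50 normalized counts 1986 (and 2031 lower), and with total-count scaling 1385 were lower; the first 2 change which genes are tested, and the cause of the third was not tested. For HET minus WT, with 763 higher and 510 lower, all 32 libraries gave 500 and 299, and leaving out WT DMSO replicate 2 gave 784 lower. For HET minus KO, with 1664 and 1299, all 32 libraries gave 825 lower. Leaving out 1 library at a time gave 2920 to 3157 higher and 2147 to 2315 lower for the HET response, 662 to 806 and 425 to 784 for HET minus WT, and 1520 to 1746 and 1148 to 1474 for HET minus KO. HET libraries alone without the shallow etoposide replicate 2, an alternative chosen after seeing the data, gave 2172 and 2226 of 14914 genes.

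Same-numbered HET libraries did not deviate together in every pair (r -0.03, 0.25, 0.49 and 0.19). These values cannot tell whether same-numbered libraries share a batch, and the main fit used no pairing. With the replicate block the counts were 3079 and 2232, 749 and 498, and 1670 and 1303.

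Of 264 results for named genes 200 kept their call under every alternative run for them. On the variance-stabilized scale the HET minus WT difference of CHRNA9 went from 1.64 to -0.08 and lost its call, which it also lost with a pseudocount of 5 (0.63). The difference of ESM1, 1.32 and not called in the main fit, reversed to -0.66 on the variance-stabilized scale and was called lower. ALX4 lost its HET minus WT call when most single libraries were left out, and BIRC3 when many were.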
